A study of Homo sapiens with 4 samples.

Results

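The lysosome and TFEB network genes are 39 genes of the 24462 genes counted in HepG2, and they were taken by gene symbol from a written list. They comprise 19 lysosomal hydrolases and their lumenal cofactors, 8 lysosomal membrane proteins, 5 proton pump genes, 5 autophagy genes and the transcription factors TFEB and TFE3. The lysosome is the acidic organelle in which cells break down proteins, lipids, glycans and material delivered by autophagy. Its membrane is coated with heavily glycosylated proteins, a proton pump keeps its lumen acidic, and soluble hydrolases digest the cargo. TFEB and TFE3 bind E-box motifs in the promoters of many lysosomal and autophagy genes, and nutrient signalling through mTORC1 holds both factors in the cytoplasm.

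HepG2, a human line derived from a liver cancer, was sequenced from total RNA by QuantSeq, which reads the 3′ ends of mRNAs, in 4 libraries, 1 for each condition. A library came from cells treated with DMSO, the solvent, and another from cells treated with PD0332991, a CDK4/6 kinase inhibitor that was labelled PD-0332991. The other libraries came from cells transfected with scrambled siRNA or with siRNAs against CDK4 and CDK6 (CDK4/6 KD). The dose and duration of PD0332991 and the time between transfection and harvest are not given for the sequenced cells. Library totals ran from 8983848 to 11176880 reads. The tables hold raw reads per gene, which were scaled to counts per 1000000 reads (CPM) with TMM library sizes. Fold changes were taken after adding 0.5 reads, where either library of the pair had 10 reads or more, and a gene is said to have risen or fallen where it changed 1.5-fold or more. Because each condition had 1 library, no difference has a replicate check and no test was possible. The ranges in brackets are 95% Clopper-Pearson (exact) limits, taken from how each gene's reads divided between both libraries. They cover counting error only and compare libraries, not conditions, and PCR copies may be counted, since no molecular identifiers are named. In bulk RNA, fewer cells of a type and less RNA per cell cannot be told apart.

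The targeted genes followed the labels. CDK4 read 354 CPM with scrambled siRNA and 71.9 CPM in CDK4/6 KD, against 301 CPM with DMSO and 257 CPM with PD0332991. CDK6 read 536 CPM with scrambled siRNA, 129 CPM in CDK4/6 KD, 515 CPM with DMSO and 479 CPM with PD0332991. All 12 hepatocyte markers were above 3 reads in every library, with a summed level of 18500 to 24100 CPM. A set of 6 macrophage markers (PTPRC, CSF1R, CD163, MRC1, TYROBP and ITGAM), chosen after their values were seen, had at most 3 reads each in any library. The whole macrophage list of 11 genes summed to 843 CPM with DMSO, 631 CPM with PD0332991, 1170 CPM with scrambled siRNA and 649 CPM in CDK4/6 KD, and 5 of the 11 genes were above 3 reads in each library. LYZ and CD74 made up nearly all of that sum. In GENCODE 29 the 3′ ends of 11 genes lie inside another annotated gene, and the strand setting of the counting is not given, so reads of both could be mixed there. With a gene on the same strand these are CTSD, HEXA, TPP1, MCOLN1 and CLN3, and with the opposite strand alone CTSA, GLA, SGSH, NPC1, SQSTM1 and WIPI1. CTSL, GUSB, ATP6V0E1, SQSTM1 and MAP1LC3B have annotated pseudogenes that could share reads with them.

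Several of these genes carry E-boxes just upstream of their start sites, and the windows below show them for members whose values are described further on. RefSeq promoters on GRCh38.p14, from 250 bases before to 50 bases after the start site, were found for 27 of the 39 genes. The letters CACGTG occurred in 9 of these 27 promoters (33.3%), against 7.43% of all 27305 promoters and 10% of the 10092 promoters of genes with at least 10 reads in a library. The longer TCACGTG contains CACGTG and adds the flanking T that TFEB and TFE3 prefer. It occurred in 8 of 27 (29.6%), against 3.82% of all promoters and 5.86% of those of genes with at least 10 reads. TCATGTG, a related form, occurred in 5 of 27 (18.5%), against 2.99% and 1.77% in the same order. All 3 motifs were read on both strands. The genes were listed as members of the TFEB network, so these shares are no independent evidence of TFEB binding, and a match is only a description of letters. In the sequences, given 5′ to 3′ on the gene's strand, capitals mark CACGTG.
CTSA, chr20:45891273-45891335, plus strand: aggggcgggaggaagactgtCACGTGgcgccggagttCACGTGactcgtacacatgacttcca
CTSD, chr11:1763949-1763994, minus strand: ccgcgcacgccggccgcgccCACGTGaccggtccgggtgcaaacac
CLN3, chr16:28492055-28492124, minus strand: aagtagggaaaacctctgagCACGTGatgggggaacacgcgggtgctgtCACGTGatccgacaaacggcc
LAMP1, chr13:113297027-113297122, plus strand: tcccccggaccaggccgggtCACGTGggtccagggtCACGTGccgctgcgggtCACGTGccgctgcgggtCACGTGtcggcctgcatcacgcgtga
MCOLN1, chr19:7522563-7522635, plus strand: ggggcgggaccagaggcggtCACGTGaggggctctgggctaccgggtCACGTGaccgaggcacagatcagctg
CD63, chr12:55729164-55729209, minus strand: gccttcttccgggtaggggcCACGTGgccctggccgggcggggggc
The first E-box of each window lies 42 bases before the RefSeq start site in CTSA, 47 in CTSD, 30 in CLN3, 192 in LAMP1, 41 in MCOLN1 and 180 in CD63. LAMP1 holds 6 copies of CACGTG in its promoter, of which 4 are shown. CD63 is the only 1 of the 9 whose E-box lacks the flanking T. In GENCODE 29 the windows of CTSA, CTSD, CLN3 and CD63 lie inside the annotated gene, whose longest model starts farther upstream, while the LAMP1 window lies before the gene. GAA, NEU1 and ATP6V0D1 hold the other E-boxes. No E-box letters were found in the promoters of SQSTM1, MAP1LC3B, GABARAPL1, WIPI1, TFEB or TFE3.

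The genes were on the whole lowest in the DMSO library. DMSO gave the lowest level for 22 of the 39 genes, PD0332991 for 6, scrambled siRNA for 7 and CDK4/6 KD for 4. PD0332991 gave the highest level for 15 genes, CDK4/6 KD for 12, scrambled siRNA for 7 and DMSO for 5. The ranking includes CTSZ, with at most 5 reads in a library, and MCOLN1, with at most 16. All genes were not ranked in this way, so these counts have no background share. Summed over the 39 genes, the level was 4156 CPM with DMSO, 5960 CPM with PD0332991, 5570 CPM with scrambled siRNA and 5281 CPM in CDK4/6 KD. The 2 control libraries therefore differed from each other, and each comparison below is read beside that difference.

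**Figure D1:**
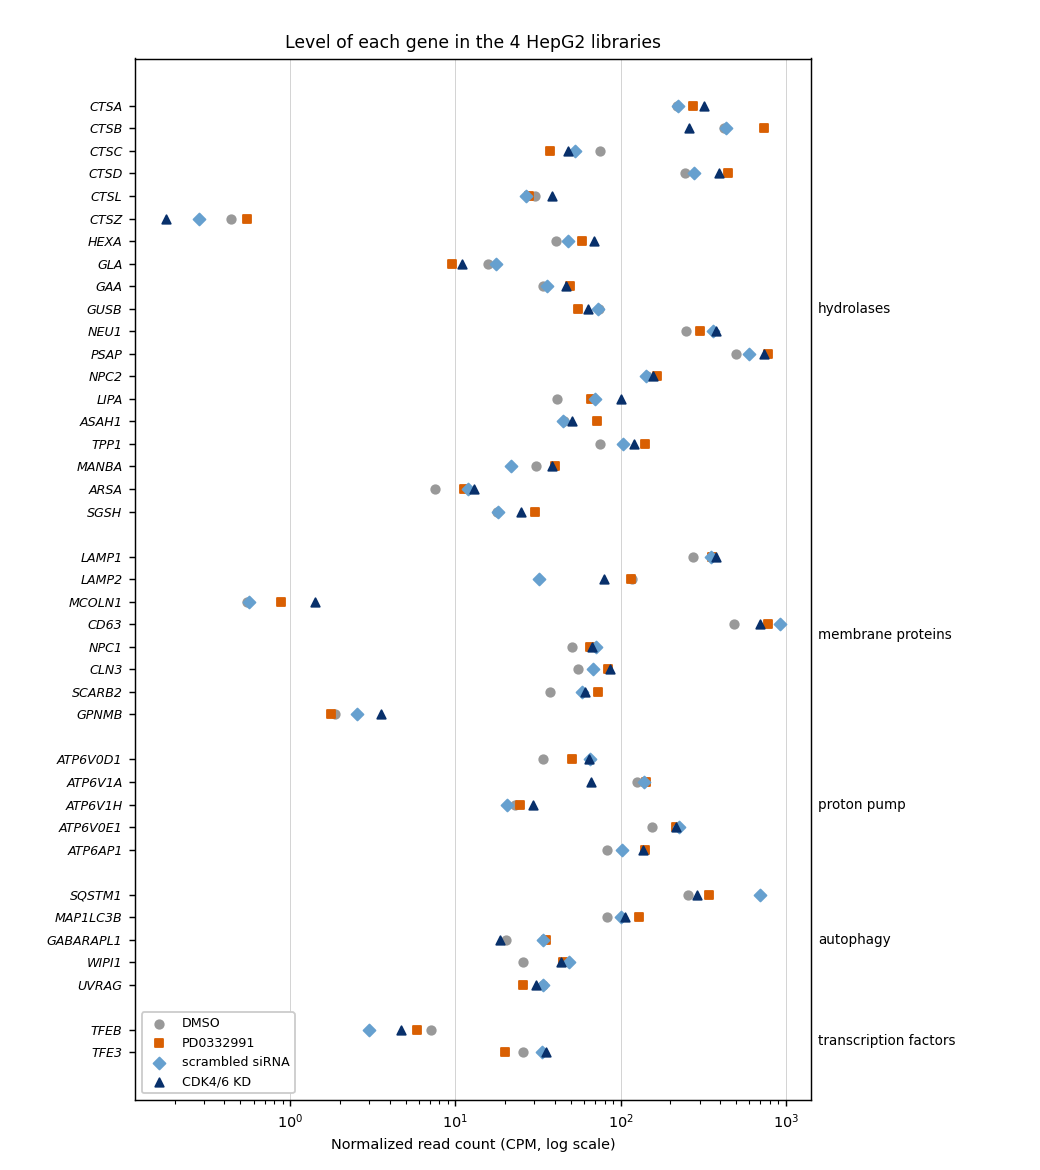
Normalized read count of each of the 39 genes (CPM, log axis) in the 4 libraries, with 1 point per library and gene, grouped by role. The DMSO point lies lowest for 22 genes, LAMP2 is lowest with scrambled siRNA (32 CPM) and SQSTM1 is highest with scrambled siRNA (698 CPM).

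After PD0332991, lysosomal genes lay mostly above DMSO. Of the 37 genes past the read filter, 14 rose and 2 fell, while 16.8% of all 13443 genes past the filter rose and 15.1% fell. The median log2 fold change was 0.49 for these genes and 0.02 for all genes. The value was above DMSO for 28 of 37 genes (75.7%), against 51.6% of all genes. The counting interval lay wholly above 1 for 27 and wholly below 1 for 5, against 3783 and 3842 of all 13443 genes. The scrambled siRNA control was above DMSO for 27 of 37 genes (73%) as well, with the interval wholly above 1 for 21 and wholly below 1 for 4. PD0332991 was above scrambled siRNA for 22 of 37. The genes that rose were CTSB, CTSD, PSAP, LIPA, ASAH1, TPP1 and SGSH among the hydrolases, CD63, CLN3 and SCARB2 among the membrane proteins, ATP6AP1 of the proton pump, and MAP1LC3B, GABARAPL1 and WIPI1 of autophagy. CTSC and GLA fell. No gene rose 2-fold, against 1007 of all 13443 genes. Against scrambled siRNA, the other control, the median was 0.05, with 7 of 37 genes 1.5-fold or more higher and 3 lower. Of all 13552 genes, 2713 were higher and 2479 lower in that comparison. In the PD0332991 library the 8 proliferation markers summed to 524 CPM, against 4200 CPM with DMSO, and the 16 keratinocyte markers to 232 CPM, against 210 CPM. The same 16 markers summed to 374 CPM with scrambled siRNA and 212 CPM in CDK4/6 KD. Without SFN and KRT10, which were left out after their values were seen, 14 keratinocyte markers summed to 93.5 CPM with PD0332991 and to 10.5 to 23.2 CPM in the other libraries. SFN itself was lower with PD0332991 (61.8 CPM) than with DMSO (134 CPM), while KRT10 read 77 and 66.3 CPM. The 10 fibroblast markers summed to 84.8 CPM with PD0332991, 52 CPM with DMSO, 24.1 CPM in CDK4/6 KD and 9.35 CPM with scrambled siRNA. Their part in the result was not tested.

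The genes moved in both directions in CDK4/6 KD. Of 38 genes past the filter, 4 rose and 5 fell, while 19.4% of all 13617 genes rose and 17.4% fell, so calls among these genes were no more frequent than among all genes. The median log2 fold change to scrambled siRNA was 0.13, against -0.00 for all genes. The value was above scrambled siRNA for 25 genes (65.8%) and below it for 13, against 49.7% and 50.3% of all genes. The counting interval lay above 1 for 17, below 1 for 7 and included 1 for 14, against 4082, 4343 and 5192 of all 13617 genes. With library totals alone in place of TMM factors, which raised the median of all genes to 0.100, 10 rose and 4 fell, and with quantile normalization 6 rose and 5 fell. MANBA, LAMP2 and TFEB rose, as did MCOLN1, which passed the filter through the CDK4/6 KD library alone and had an interval that included 1. With a filter of 50 reads, which leaves MCOLN1 out, 3 genes rose and 5 fell. CTSB, GLA, ATP6V1A, SQSTM1 and GABARAPL1 fell. The 8 proliferation markers summed to 1280 CPM in CDK4/6 KD and 2990 CPM with scrambled siRNA, and the part of this in the result was not tested.

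**Figure D2:**
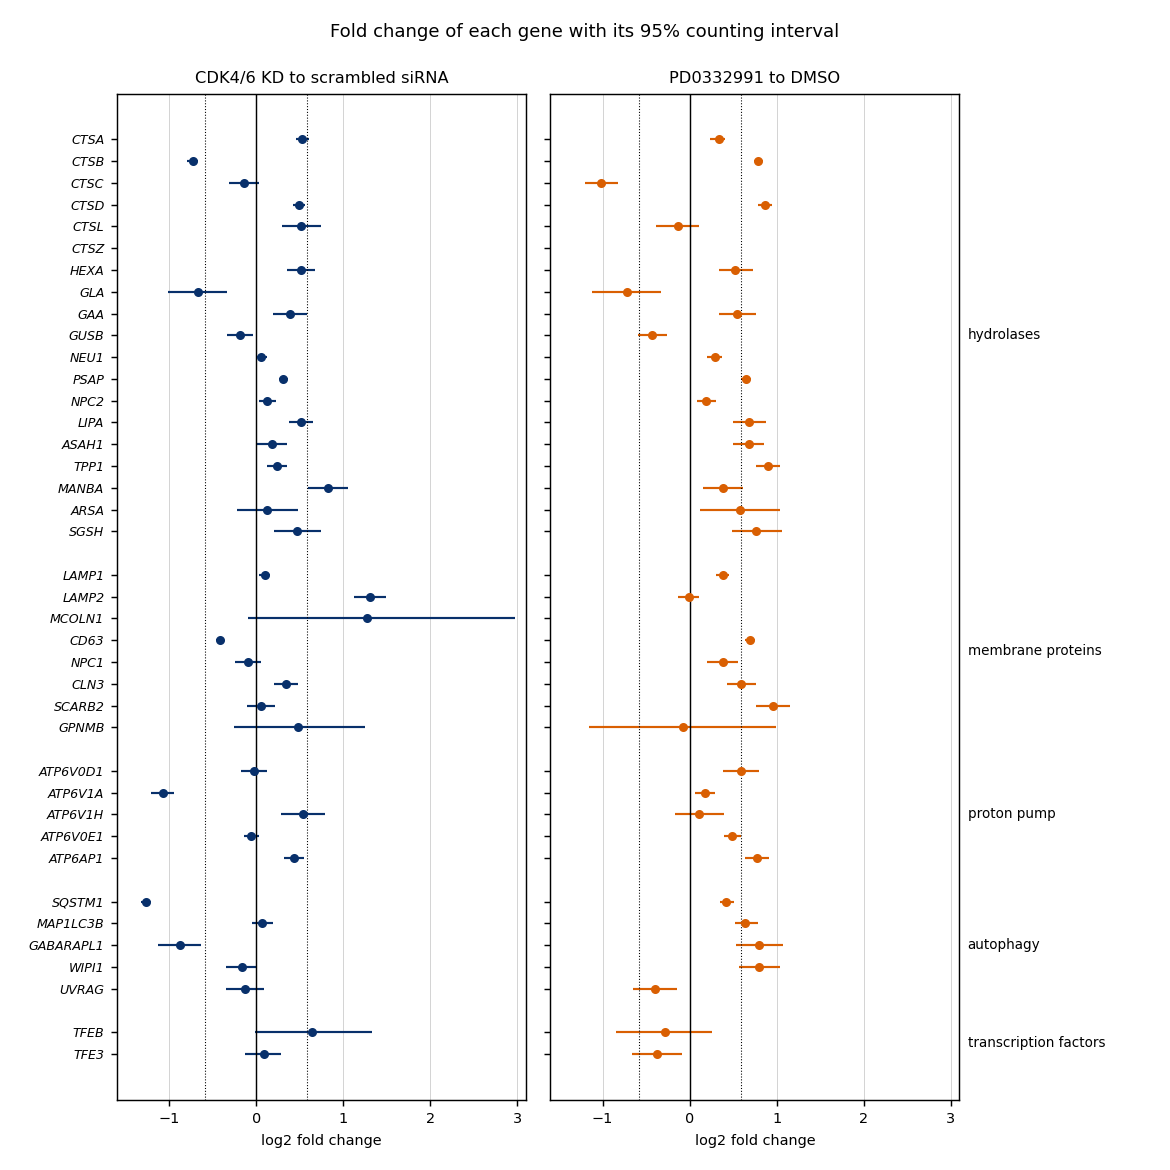
Log2 fold change of each gene in CDK4/6 KD against scrambled siRNA (left) and after PD0332991 against DMSO (right), with bars for the 95% counting interval and dotted lines at 1.5-fold. After PD0332991, 28 of 37 points lie to the right of 0, and in CDK4/6 KD 25 of 38 do. CTSZ has no point and MCOLN1 none on the right, because their reads were below the filter.

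**Figure D3:**
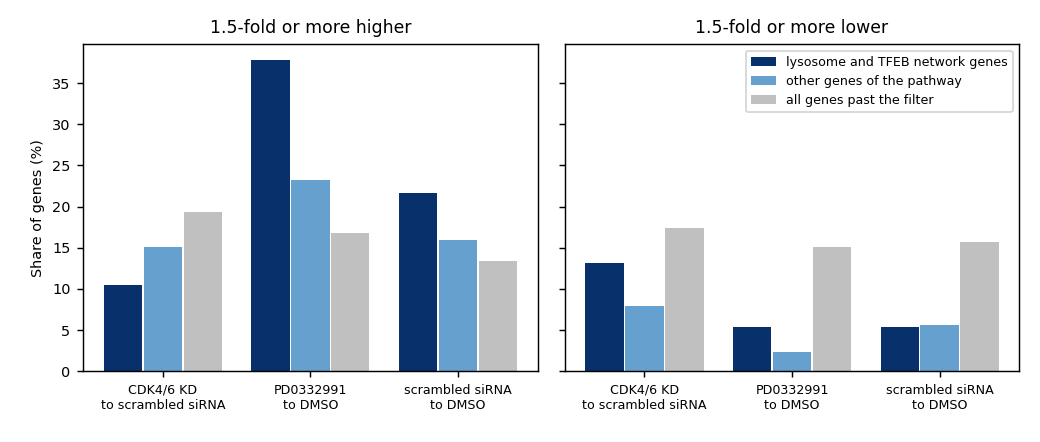
Share of genes (%) that were 1.5-fold or more higher (left) or lower (right) in each comparison, for the lysosome and TFEB network genes, for other genes of the pathway and for all genes past the filter. After PD0332991 the upward bar of the network genes stands for 14 of 37 genes beside 16.8% of all genes, and in CDK4/6 KD it stands for 4 of 38 beside 19.4%.

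Among the hydrolases, the cathepsins, which digest proteins, moved in different directions. CTSD, the main aspartyl cathepsin, read 246 CPM with DMSO, 449 CPM with PD0332991, 279 CPM with scrambled siRNA and 392 CPM in CDK4/6 KD. Both control libraries were lower than both libraries with CDK4/6 inhibition. The fold change was 1.82 after PD0332991 (1.73 to 1.92) and 1.41 in CDK4/6 KD (1.34 to 1.47), so that CTSD passed 1.5-fold only in the former. CTSB, a cysteine cathepsin, read 424 CPM with DMSO, 736 CPM with PD0332991, 432 CPM with scrambled siRNA and 260 CPM in CDK4/6 KD. Its controls were nearly level, with the PD0332991 library above both and the CDK4/6 KD library below both. Its fold change was 1.73 after PD0332991 (1.67 to 1.8) and 0.602 in CDK4/6 KD (0.575 to 0.631). CTSC, the dipeptidyl peptidase that activates serine proteases of granules, read 75.1 CPM with DMSO, 37.1 CPM with PD0332991, 52.9 CPM with scrambled siRNA and 47.8 CPM in CDK4/6 KD. DMSO was the highest library and PD0332991 the lowest, and the fold change after PD0332991 was 0.495 (0.433 to 0.564).

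The serine carboxypeptidase CTSA, which shields lysosomal glycosidases from degradation, read 219 CPM with DMSO, 275 CPM with PD0332991, 221 CPM with scrambled siRNA and 319 CPM in CDK4/6 KD. Its fold change was 1.26 after PD0332991 and 1.44 in CDK4/6 KD, both under 1.5-fold. CTSL, a cysteine cathepsin with 6 annotated pseudogenes, read between 26.9 and 38.6 CPM, with the highest level in CDK4/6 KD (fold change: 1.43). CTSZ had 2 to 5 reads per library and gave no fold change.

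TPP1, a tripeptidyl peptidase, had the largest rise of the hydrolases after PD0332991. It read 74.6 CPM with DMSO, 140 CPM with PD0332991, 103 CPM with scrambled siRNA and 121 CPM in CDK4/6 KD (fold change after PD0332991: 1.87, 1.7 to 2.06). DMSO was its lowest library. PSAP, the precursor of the saposins that help hydrolases reach their lipid substrates, read 497, 778, 596 and 742 CPM in DMSO, PD0332991, scrambled siRNA and CDK4/6 KD. It rose 1.57-fold after PD0332991 (1.51 to 1.63), and its fold change in CDK4/6 KD was 1.24 (1.2 to 1.29). NPC2, the lumenal carrier that hands cholesterol to NPC1, varied least, from 143 to 165 CPM.

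LIPA and ASAH1 act on lipids. LIPA, the acid lipase that releases cholesterol and fatty acids, read 41.3 CPM with DMSO, 66.1 CPM with PD0332991, 70 CPM with scrambled siRNA and 100 CPM in CDK4/6 KD. DMSO stood below the other 3 libraries, so the rise after PD0332991 (fold change: 1.6, 1.41 to 1.83) was not seen against scrambled siRNA (fold change: 0.945). ASAH1, the acid ceramidase, read 45.1 CPM with DMSO, 72.2 CPM with PD0332991, 44.5 CPM with scrambled siRNA and 50.4 CPM in CDK4/6 KD. The PD0332991 library was above the other 3, and the fold change was 1.6 against DMSO (1.41 to 1.81) and 1.62 against scrambled siRNA. ARSA, the arylsulfatase that acts on sulfatides, had 1.49-fold more after PD0332991, with a wide counting interval (1.09 to 2.06), and 1.09-fold more in CDK4/6 KD.

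Of the enzymes that act on glycans, MANBA and GLA passed 1.5-fold in CDK4/6 KD, in opposite directions. MANBA, a beta-mannosidase, read 30.6 CPM with DMSO, 39.9 CPM with PD0332991, 21.8 CPM with scrambled siRNA and 38.5 CPM in CDK4/6 KD. Scrambled siRNA was the lowest library, and the fold change was 1.77 against scrambled siRNA (1.51 to 2.08) but 1.26 against DMSO. GLA, the alpha-galactosidase, read 15.8 CPM with DMSO, 9.55 CPM with PD0332991, 17.6 CPM with scrambled siRNA and 11 CPM in CDK4/6 KD. Both controls were above both other libraries, and GLA fell in both comparisons (fold change: 0.608, 0.459 to 0.797, after PD0332991 and 0.629, 0.497 to 0.792, in CDK4/6 KD). SGSH, a sulfamidase of heparan sulfate, read 17.8 CPM with DMSO, 30.4 CPM with PD0332991, 18.1 CPM with scrambled siRNA and 25.1 CPM in CDK4/6 KD. Both controls were below both other libraries, with fold changes of 1.7 after PD0332991 (1.4 to 2.08) and 1.38 in CDK4/6 KD (1.15 to 1.67). HEXA, a subunit of hexosaminidase, and GAA, the glycogen-degrading alpha-glucosidase, had fold changes of 1.44 and 1.46 after PD0332991 and of 1.43 and 1.31 in CDK4/6 KD. NEU1, a sialidase, had fold changes of 1.22 after PD0332991 and 1.04 in CDK4/6 KD, and the PD0332991 library was lower than scrambled siRNA (fold change: 0.837, 0.796 to 0.879). GUSB, a beta-glucuronidase with 11 annotated pseudogenes, had fold changes of 0.742 and 0.877 in the same order.

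Together the 18 hydrolase genes past the filter had a median log2 fold change of 0.54 after PD0332991, with 7 that rose and 2 that fell, beside 16.8% and 15.1% of all genes. The median in CDK4/6 KD was 0.28, with 1 that rose and 2 that fell, beside 19.4% and 17.4%. Total counts alone gave 6 that rose and 1 that fell there, and quantile normalization 4 and 2, while without genes that overlap another at the 3′ end the median was 0.16. Above the control lay 14 of the 18 genes in each comparison, against 51.6% of all genes after PD0332991 and 49.7% in CDK4/6 KD. With scrambled siRNA, 12 of 18 lay above DMSO, and with PD0332991, 12 of 18 lay above scrambled siRNA.

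The membrane proteins gave the widest spread between the control libraries. LAMP2, a major glycoprotein of the lysosomal membrane and a receptor in chaperone-mediated autophagy, read 117 CPM with DMSO, 116 CPM with PD0332991, 32 CPM with scrambled siRNA and 79.1 CPM in CDK4/6 KD. The scrambled siRNA library stood far below the other 3. LAMP2 was 2.47-fold higher in CDK4/6 KD than with scrambled siRNA (2.18 to 2.81), yet its fold change was 0.677 against DMSO. After PD0332991 its fold change was 0.992 (0.91 to 1.08). LAMP1, the related glycoprotein with the row of E-boxes shown above, read 274 CPM with DMSO, 355 CPM with PD0332991, 352 CPM with scrambled siRNA and 376 CPM in CDK4/6 KD. DMSO was the lowest library, and the fold changes were 1.3 after PD0332991 (1.23 to 1.37) and 1.07 in CDK4/6 KD (1.02 to 1.12).

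CD63, a tetraspanin of late endosomes and lysosomes, read 484 CPM with DMSO, 784 CPM with PD0332991, 927 CPM with scrambled siRNA and 693 CPM in CDK4/6 KD. It rose 1.62-fold from DMSO to PD0332991 (1.56 to 1.68), and the scrambled siRNA library was higher still. SCARB2, the receptor that carries glucocerebrosidase to the lysosome, read 37.3 CPM with DMSO, 72.6 CPM with PD0332991, 58.3 CPM with scrambled siRNA and 60.6 CPM in CDK4/6 KD. It had the largest rise of all 37 genes after PD0332991 (fold change: 1.94, 1.7 to 2.22), and its fold change in CDK4/6 KD was 1.04. CLN3, the membrane protein altered in juvenile Batten disease, read 55.3, 83.7, 67.9 and 86.4 CPM in DMSO, PD0332991, scrambled siRNA and CDK4/6 KD. Its fold change was 1.51 after PD0332991 (1.35 to 1.7), just past the threshold, and 1.27 in CDK4/6 KD (1.15 to 1.4). NPC1, which exports cholesterol through the membrane, had fold changes of 1.3 and 0.938.

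MCOLN1, the calcium channel whose opening feeds calcineurin and TFEB, had 5 reads with DMSO, 8 with PD0332991, 6 with scrambled siRNA and 16 in CDK4/6 KD. The CDK4/6 KD library was the highest, but the fold change of 2.41 had an interval from 0.937 to 7.87. GPNMB, a glycoprotein of stressed lysosomes, had 17, 16, 27 and 40 reads in DMSO, PD0332991, scrambled siRNA and CDK4/6 KD. Neither comparison gave a difference detectable at this depth (fold change: 0.946, 0.447 to 1.99, and 1.39, 0.838 to 2.37).

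The proton pump genes all lay above DMSO after PD0332991, with a median log2 fold change of 0.49, though ATP6AP1 alone passed 1.5-fold. ATP6AP1, an accessory subunit, read 82.1 CPM with DMSO, 140 CPM with PD0332991, 102 CPM with scrambled siRNA and 137 CPM in CDK4/6 KD. Both controls were below both other libraries, with fold changes of 1.71 (1.56 to 1.88) and 1.35 (1.25 to 1.46). ATP6V1A, the catalytic subunit that splits ATP, read 126 CPM with DMSO, 142 CPM with PD0332991, 139 CPM with scrambled siRNA and 65.8 CPM in CDK4/6 KD. The CDK4/6 KD library alone was low (fold change: 0.475, 0.434 to 0.519, and 0.523 against DMSO), while after PD0332991 the fold change was 1.13. ATP6V0D1, a subunit of the membrane-embedded part, read 33.9, 50.8, 65.4 and 64.2 CPM in DMSO, PD0332991, scrambled siRNA and CDK4/6 KD. Its change after PD0332991 fell just short of the threshold before rounding (fold change: 1.5, 1.3 to 1.74), and against scrambled siRNA its fold change was 0.777 (0.69 to 0.875). ATP6V0E1, with 4 annotated pseudogenes, had fold changes of 1.4 after PD0332991 and 0.961 in CDK4/6 KD. ATP6V1H, a regulatory subunit, had fold changes of 1.08 and 1.45. Over the 5 genes the median in CDK4/6 KD was -0.03.

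Of the autophagy genes, SQSTM1 differed most between the libraries. SQSTM1, the p62 receptor that carries ubiquitinated cargo into autophagosomes, read 255 CPM with DMSO, 342 CPM with PD0332991, 698 CPM with scrambled siRNA and 290 CPM in CDK4/6 KD. The scrambled siRNA library stood far above the other 3. SQSTM1 thus fell in CDK4/6 KD (fold change: 0.416, 0.399 to 0.433) while its fold change was 1.14 against DMSO, and it was 2.74-fold higher with scrambled siRNA than with DMSO. For PD0332991 its fold change was 1.34 against DMSO (1.27 to 1.42) and 0.49 against scrambled siRNA (0.469 to 0.511). GABARAPL1, which coats autophagosomes, read 20.2 CPM with DMSO, 35.3 CPM with PD0332991, 34.1 CPM with scrambled siRNA and 18.6 CPM in CDK4/6 KD. DMSO and CDK4/6 KD were low and the other libraries high. Its fold change was 1.74 after PD0332991 (1.45 to 2.1) and 0.544 in CDK4/6 KD (0.457 to 0.646), but 1.03 and 0.916 with the control libraries exchanged.

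MAP1LC3B, the LC3 protein of the autophagosome membrane, read 82.4 CPM with DMSO, 129 CPM with PD0332991, 101 CPM with scrambled siRNA and 106 CPM in CDK4/6 KD. DMSO was the lowest and PD0332991 the highest (fold change: 1.56, 1.43 to 1.72), and the fold change in CDK4/6 KD was 1.05. WIPI1, which binds phosphoinositide on forming autophagosomes, read 25.7, 44.9, 48.7 and 43.4 CPM in DMSO, PD0332991, scrambled siRNA and CDK4/6 KD. Again DMSO was apart from the other 3, with fold changes of 1.74 after PD0332991 (1.48 to 2.06) and 0.891 in CDK4/6 KD. UVRAG, a partner of the class III phosphoinositide kinase, had fold changes of 0.758 and 0.911. Over the 5 autophagy genes the median was 0.65 on the log2 scale after PD0332991 and -0.17 in CDK4/6 KD.

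The transcription factors themselves were counted at low levels. TFEB had 65 reads with DMSO, 53 with PD0332991, 32 with scrambled siRNA and 53 in CDK4/6 KD. The scrambled siRNA library was the lowest, so that TFEB rose in CDK4/6 KD (fold change: 1.56) with an interval that included 1 (0.991 to 2.51), while its fold change was 0.661 against DMSO. After PD0332991 the fold change was 0.82 (0.558 to 1.19). TFE3 read 25.8 CPM with DMSO, 19.9 CPM with PD0332991, 33.3 CPM with scrambled siRNA and 35.2 CPM in CDK4/6 KD. The PD0332991 library was the lowest (fold change: 0.77, 0.631 to 0.938), and the fold change in CDK4/6 KD was 1.06. The RNA level of these factors does not show their location in the cell or their activity.

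The 2 control libraries, neither with CDK4/6 inhibition, differed from each other in these genes. With scrambled siRNA, 8 of 37 genes lay 1.5-fold or more above DMSO and 2 below it, against 13.4% and 15.7% of all genes, and the median log2 fold change was 0.26. The genes above were LIPA, ARSA, CD63, SCARB2, ATP6V0D1, SQSTM1, GABARAPL1 and WIPI1, and those below were LAMP2 (fold change: 0.274) and TFEB (fold change: 0.424). The autophagy genes had the highest median (0.75), then the membrane proteins (0.43), the proton pump (0.31) and the hydrolases (0.05). With the controls exchanged, the median after PD0332991 dropped to 0.05 over all the genes, to 0.01 for the membrane proteins, to 0.04 for the proton pump and to -0.12 for autophagy, and went from 0.54 to 0.30 for the hydrolases. In CDK4/6 KD, the same exchange gave a median of 0.46 for all the genes and 0.48 for the hydrolases.

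**Figure D4:**
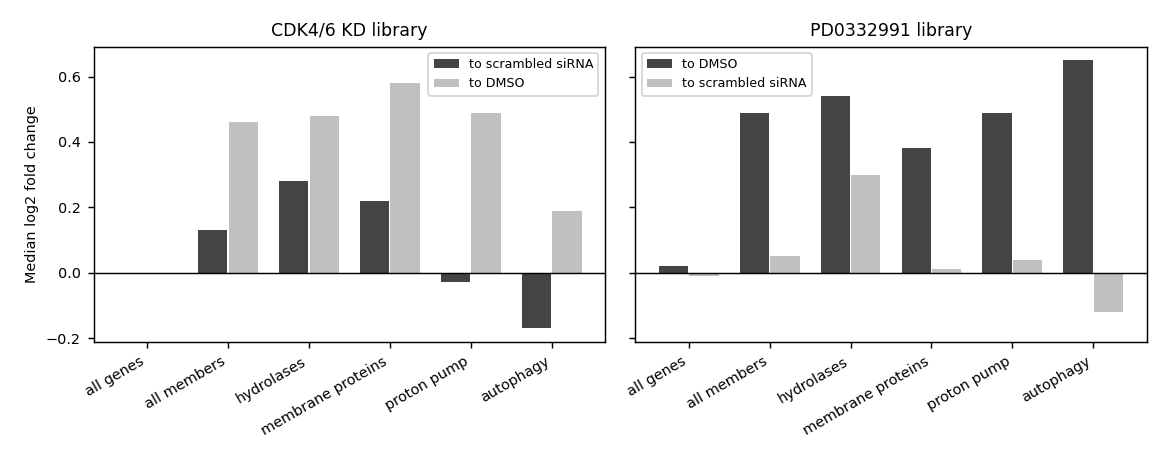
Median log2 fold change by role for the CDK4/6 KD library (left) and the PD0332991 library (right), each against its own control (dark bars) and against the other control (light bars), with all genes past the filter as reference. The hydrolases have medians of 0.28 to 0.54 against either control, while the autophagy median turns from 0.65 to -0.12 for PD0332991 and from -0.17 to 0.19 for CDK4/6 KD.

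Few genes passed 1.5-fold against both controls. With PD0332991, CTSB, CTSD, ASAH1 and SGSH were higher than in both controls, 4 of 37 genes beside 10.2% of all genes, and GLA was lower, beside 8.86%. In CDK4/6 KD, CTSB and ATP6V1A were lower than in both, 2 of 38 genes beside 9.4% of all genes. The 1 gene counted as higher, beside 9.16%, was MCOLN1, which met the read filter only in the CDK4/6 KD library and whose interval included 1 against both controls (0.937 to 7.87 and 0.904 to 9.02). No share stood clearly above its background. Taking each library against its own control, 19 of 37 genes (51.4%) were above the control in both comparisons, against 29.7% of all genes, and 4 (10.8%) were below it in both, against 29.4%. Separately, 65.8% of the genes were above the control in CDK4/6 KD and 75.7% after PD0332991, and 73% were above DMSO with scrambled siRNA. Whether the 2 comparisons shared more genes than these separate shares give was not tested. No gene rose in both comparisons, against 5.94% of all genes, and GLA alone fell in both.

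The E-box promoters were set beside the fold changes. The 7 genes with TCACGTG past the filter were all above DMSO after PD0332991, with a median log2 fold change of 0.55, and CTSD and CLN3 rose. The same 7 genes were also all above DMSO with scrambled siRNA, with a median of 0.30, against 0.40 for the 18 genes without the letters. After PD0332991, 11 of those 18 were above DMSO, with a median of 0.40. Of the 18, 8 rose, among them MAP1LC3B, GABARAPL1 and WIPI1, and 2 fell. Over all genes with a promoter, 93 of 579 with TCACGTG rose (16.1%) and 83 fell. Without it, 1435 of 9206 rose (15.6%) and 1364 fell. In CDK4/6 KD the medians were 0.37 for 8 genes with the letters and 0.06 for 18 without. Of these 8, only MCOLN1 rose, which passed the filter through the CDK4/6 KD library alone, and none fell. Of the 18, 1 rose and 3 fell. Over all genes with a promoter, 91 of 585 with TCACGTG rose (15.6%) and 107 fell there. Without it, 1694 of 9301 rose (18.2%) and 1580 fell. Over all genes with a promoter, the median after PD0332991 was 0.01 with TCACGTG and 0.00 without. In CDK4/6 KD the medians over all genes with a promoter were -0.02 and -0.01.

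Other genes of the pathway, 134 in all and fixed as 6 lists, were taken from the same roles and from the control of TFEB and enzyme sorting. After PD0332991, of 125 past the filter, 29 rose and 3 fell, with a median log2 fold change of 0.21, against 16.8% and 15.1% of all genes. Other autophagy genes had a median of 0.45, with 10 of 25 that rose and none that fell, and other membrane proteins a median of 0.43, with 7 of 20 that rose and none that fell. Of 29 other hydrolases 6 rose and 3 fell (median 0.30). None of 12 other proton pump subunits passed 1.5-fold (0.17), 3 of 21 genes of TFEB control rose (0.06), and 3 of 18 genes of enzyme sorting rose (-0.04). Against scrambled siRNA, the PD0332991 library had a median of -0.01 over 125 genes, with 21 higher and 9 lower by 1.5-fold. Of all 13552 genes, 2713 were higher and 2479 lower there. The medians of other autophagy genes and other membrane proteins were then 0.14 and 0.06. From DMSO to scrambled siRNA, 20 of 125 were higher and 7 lower (median 0.17), against 13.4% and 15.7% of all genes. In CDK4/6 KD, 19 of 126 rose and 10 fell, with a median of 0.15, against 19.4% and 17.4% of all genes, so both shares were below the background. There the other hydrolases had 9 that rose and 1 that fell among 30 (0.23), other membrane proteins 4 and 2 among 20 (0.05), other proton pump subunits 1 and 1 among 12 (0.01), other autophagy genes 2 and 1 among 25 (0.16), TFEB control 2 and 2 among 21 (0.25) and enzyme sorting 1 and 3 among 18 (-0.04).

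ULK1, the kinase that starts autophagosome formation, had the largest rise of the other pathway genes with at least 50 reads in both libraries, in both comparisons. It read 27.6 CPM with DMSO, 67 CPM with PD0332991, 18.3 CPM with scrambled siRNA and 78.6 CPM in CDK4/6 KD. Both controls were below both other libraries, with fold changes of 2.43 (2.09 to 2.82) and 4.28 (3.67 to 5.04). After PD0332991 the next largest rises were those of SMPD1, the acid sphingomyelinase (10.6 to 21.6 CPM, fold change: 2.03, 1.59 to 2.63), and NAGLU, a glucosaminidase of heparan sulfate (15.4 to 30.1 CPM, fold change: 1.95, 1.59 to 2.41). The lowest fold changes were those of GGH, the gamma-glutamyl hydrolase of folates (66 to 28.3 CPM, fold change: 0.43, 0.37 to 0.498), ARSB, an arylsulfatase (43.8 to 27.5 CPM, fold change: 0.628, 0.533 to 0.736), and ATG3, an autophagy conjugation enzyme (18.6 to 12.8 CPM, fold change: 0.692, 0.541 to 0.879), which was short of 1.5-fold.

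In CDK4/6 KD the next largest rises were those of DNASE2, the lysosomal DNase (24.8 to 49.6 CPM, fold change: 2, 1.73 to 2.32), and RPTOR, a subunit of mTORC1 (10.1 to 20.1 CPM, fold change: 1.98, 1.57 to 2.52). RPTOR read 20.9 CPM with DMSO, so its rise rests on the scrambled siRNA library. ARSB had the largest fall (23 to 9.28 CPM, fold change: 0.405, 0.318 to 0.509), and DMSO was its highest library. RRAGC, a Rag GTPase that recruits mTORC1 and TFEB to the lysosome, fell from 108 to 51.4 CPM (fold change: 0.474, 0.428 to 0.524), with 60 CPM in DMSO. M6PR, a mannose 6-phosphate receptor that sorts hydrolases, fell from 158 to 82.1 CPM (fold change: 0.521, 0.48 to 0.564), with 125 CPM in DMSO.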

How the data were processed

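For each of 4 HepG2 libraries the authors deposited a table of raw read counts by gene symbol, not normalized. The submitters' processing notes name Bowtie2, edgeR and the build hg19. The read counter, the annotation and the strand setting are not given in the sources used here. Each table has 25737 entries. Summing the entries of 286 repeated symbols left 24462 genes. Library totals ran from 8983848 to 11176880 reads, and 12780 to 13257 genes per library had at least 10 reads.

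Groups were taken from the sample titles. Library sizes were corrected with TMM factors over all 4 libraries (edgeR 4.0.16, R 4.3.3). CDK4/6 KD was compared with scrambled siRNA, and PD0332991 with DMSO. To each count 0.5 reads were added in proportion to library size, genes needed 10 reads in either library, and 1.5-fold was the threshold. Clopper-Pearson intervals at 95% were computed with scipy 1.17.1. With 1 library per condition the quasi-likelihood test of edgeR could not be run, and no p-value was computed. The procedure was run on counts simulated with counting error alone, as the intervals assume. That run could not show how far replicate libraries would vary. The members and lists were chosen with earlier results of these data known. All 39 members were named, and of the other pathway genes the 3 largest rises and 3 largest falls per comparison among genes with at least 50 reads in both libraries.

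The alternatives were size factors of DESeq2 1.42.0, total counts alone, quantile normalization (limma 3.58.1), a pseudocount of 5 reads, no filter or a filter of 50 reads, exchanged control libraries, 2-fold as the threshold, the entire interval past 1.5-fold, the largest entry alone for repeated symbols, and hydrolases without PSAP and NPC2. Leaving out genes whose 3′ end lies inside another gene, and calls against both controls, were added after the data were examined. Promoters came from RefSeq on GRCh38.p14 and gene overlaps from GENCODE 29 on GRCh38, joined by symbol, while the counts were made on hg19.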

Additional observations from a re-analysis of the deposited data

Results flagged for a closer look

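CTSB lay on opposite sides of its control in the 2 comparisons, with a fold change of 0.602 in CDK4/6 KD and 1.73 after PD0332991. With the control libraries exchanged, the fold changes were 0.614 and 1.7. GABARAPL1 had a fold change of 0.544 in CDK4/6 KD and 1.74 after PD0332991, and with the controls exchanged these were 0.916 and 1.03. Both genes passed 1.5-fold in opposite directions, which is what drew attention to them. With 1 library per condition, the difference between the 2 comparisons was not tested for either gene.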

How the results depend on the processing

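The control library moved these results most. Exchanging the controls put 20 of 79 gene fold changes on the other side of 1. These 79 are the fold changes past the filter in both comparisons, with those of CDK4 and CDK6 included. Total counts alone did so for 3 of 79, quantile normalization for 3 of 79, and the other scalings, pseudocounts and filters that kept all 79 for none. With DMSO as the control of CDK4/6 KD, the median log2 fold change was 0.46, with 13 genes higher and 4 lower by 1.5-fold. Of all 13512 genes, 2288 were higher and 2352 lower. By role the median was 0.48 for hydrolases, 0.58 for membrane proteins, 0.49 for the proton pump and 0.19 for autophagy. The fold changes of LAMP2 (0.677), SQSTM1 (1.14) and TFEB (0.661) reversed. With scrambled siRNA as the control of PD0332991, the median was 0.05, with 7 genes higher and 3 lower. Of all 13552 genes, 2713 were higher and 2479 lower. By role the median was 0.01 for membrane proteins, 0.04 for the proton pump and -0.12 for autophagy. LIPA (0.945), CD63 (0.847) and WIPI1 (0.923) reversed. Of genes short of 1.5-fold against DMSO, SQSTM1 went from 1.34 to 0.49, ATP6V0D1 from 1.5 to 0.777 and NEU1 from 1.22 to 0.837. At 2-fold, CDK4/6 KD had 2 genes higher and 2 lower, against 1252 and 1037 of all 13617 genes. PD0332991 had 0 higher and 1 lower, against 1007 and 949 of 13443. With scrambled siRNA, 1 gene lay above DMSO and 2 below it, against 705 and 883 of 13303. Requiring the whole interval past 1.5-fold left 2 upward and 4 downward calls in CDK4/6 KD, and 7 upward and 1 downward after PD0332991. Between the controls it left 4 upward calls, and downward those of LAMP2 (0.242 to 0.309) and TFEB (0.266 to 0.651). All genes were not counted under this rule, so the calls it left cannot be set beside a background share. Past 1.5-fold against both controls, CDK4/6 KD had 1 higher and 2 lower, with 4 higher and 1 lower after PD0332991. Without genes that overlap another gene at the 3′ end, 3 were lower in CDK4/6 KD, where the hydrolase median was 0.16, and 9 were higher and 1 lower after PD0332991. Total counts alone shifted the median of all genes in CDK4/6 KD from -0.004 to 0.100 and gave 10 genes higher. The cause of these differences was not tested. DESeq2 size factors, a pseudocount of 5 reads, no filter, the largest entry alone for repeated symbols, and hydrolases without PSAP and NPC2 moved no value beyond its counting interval and no count beyond 1.5 times. Depth limits MCOLN1, GPNMB, TFEB and ARSA, and CTSZ could not be compared. No library could be left out with 1 per condition. No paired analysis was possible because each condition has 1 library and the labels give no replicate numbers.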
